A study of Rattus norvegicus with 9 samples.

Results

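The genes described here are those of the neuropeptide Y and somatostatin systems: the peptides Npy, Sst and Cort, the neuropeptide Y receptors Npy1r, Npy2r and Npy5r, and the somatostatin receptors Sstr1, Sstr2, Sstr3 and Sstr4. They were taken as every non-control probe whose gene name in the scanner files equals one of these symbols, which gave 10 genes of 34912 gene names, with 13 probes and 31 spots on each array. Of the 13 probes 12 were tested, and the remaining probe, the second of Npy2r, was at background on all 9 arrays.

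The study measured amygdala RNA of female spontaneously hypertensive rats (SHR, an inbred strain with high blood pressure) on 1-colour Agilent arrays, with 1 rat on each array and the left and right amygdala of a rat in 1 sample. All rats had lost both ovaries at 4 weeks of age and carried a pump under the skin from 1 week later until tissue was taken at 9 weeks. In the OV group (n = 4) the pump held polyethylene glycol (PEG) alone, and in the OV+E2 group (n = 5) it held estradiol in PEG, released at 2 µg per day. Rats with intact ovaries are not part of either group, so each difference below is between ovariectomised rats with and without replaced estradiol.

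Neuropeptide Y and somatostatin are peptides that GABA-releasing interneurons of the amygdala store and release, often from the same cells. Their receptors are G protein-coupled and act mainly through Gi and Go proteins, which lower cyclic AMP and open inward-rectifying potassium channels, so that both peptides generally quieten the neurons they reach. In the amygdala neuropeptide Y acting on the Y1 receptor is known for reducing anxiety-like behaviour, and somatostatin neurons form a main population of the central nucleus.

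The arrays lay on 2 slides. Slide 1 held OV replicates 1, 2 and 3 with OV+E2 replicates 1 and 2, and slide 2 held OV replicate 5 with OV+E2 replicates 3, 4 and 5. OV replicate 3 stood apart. The 75th percentile of its signal was 129.7 against 556.8 to 737.6 on the other 8 arrays, and 24225 of its probes were well above background against 29052 to 31395. The authors' value table gives another picture of that rat: its log2 values differed from the scanner file with an SD of 1.00 over probes, against 0.00299 to 0.0307 for the other 8 rats, and which of the 2 records holds this rat's RNA is not settled by the sources used here. Differences are therefore given with all 9 arrays and with this array left out, and for some genes in the authors' values as well. Of 11 markers fixed for amygdala nuclei 9 were tested, all well above background on 8 or 9 arrays, and Rspo2 and Tac2 were not tested.

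The probes themselves set what could be read. Coordinates are those of rat build rn4, as the file headers give them, and which exon or untranslated region a probe hits is not given there. Npy was read on chromosome 4 at 78045125 to 78045184 and Sst on chromosome 11 at 79126157 to 79126216, both on the plus strand and each by a single probe printed 10 times on every array. These are the only members with repeated spots, so their error from spot to spot within an array could be measured. Both probes hold AATAAA, the letters of the common polyadenylation signal (capitals), which occur in 4121 of 45598 probes on the array (9.04%), searched on the probe's own strand, and in 2 of the 13 member probes. The stretches around it, bases 31 to 60 of the Npy probe and bases 26 to 55 of the Sst probe, read 5′ to 3′:
Npy: tatatgtgtgtttaAATAAAgtatcatgca
Sst: ctgtaaatacaaAATAAAattatggtgaaa

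Cort has 2 probes on the minus strand of chromosome 5, at 166199035 to 166199094 and 166199061 to 166199120. They are shown because they are not separate readings of the gene: 34 of their 60 bases, in capitals, are the same stretch.
Cort probe 1: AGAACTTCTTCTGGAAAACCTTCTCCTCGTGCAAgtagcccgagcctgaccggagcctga
Cort probe 2: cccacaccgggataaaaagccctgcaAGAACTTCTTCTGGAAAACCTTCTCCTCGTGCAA

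The 2 probes of Npy2r share a name and little else. The files place the first on the minus strand of chromosome 2 at 174257679 to 174257738 and the second on the plus strand at 150556048 to 150556107, 23.7 Mb apart, although both accessions belong to RefSeq's Npy2r. The first holds 21 G or C bases of 60 and the second 27. Their first 30 bases are shown because only the first probe gave a signal:
Npy2r probe 1: ggtcctgtgacacctgctggaatactaaat
Npy2r probe 2: ctggaagtcaaaaagaacaatggcctcact

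The other receptor probes lie at chromosome 16, 24747554 to 24747613, minus strand (Npy1r), and 24.7 kb away at 24772249 to 24772308, plus strand (Npy5r). Sstr1 has 2 probes on chromosome 6, plus strand, at 78806638 to 78806697 and 78806862 to 78806921, with starts 224 bases apart. Sstr2 was read on chromosome 10 at 103253642 to 103253701 (plus), Sstr3 on chromosome 7 at 116495844 to 116495903 (minus) and Sstr4 on chromosome 3 at 137152182 to 137152241 (plus).

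Values below are log2 of the processed signal minus the 75th percentile of the array, so 0 is the level of that percentile, and differences are OV+E2 minus OV with the standard error (SE) of the limma fit. Levels of different probes are not compared, since probes differ in how they bind. None of the 30215 tested probes passed an adjusted p of 0.05 (limma with Benjamini-Hochberg adjustment, 0% called), and 3134 probes (10.4%) had an unadjusted p under 0.05, 968 of them higher (3.2%) and 2166 lower (7.17%) in OV+E2. None of the 12 member probes passed either threshold with all 9 arrays. Without OV replicate 3 a single probe on the array passed the adjusted threshold (0.00331%), and it was not a member. At the unadjusted threshold 4265 probes (14.1%) then passed, with 1 of the 12 member probes, Npy1r, among them, a share close to that of the whole array (5.84% of all probes passed on the higher side). Without OV replicate 1 there were 3 member probes, of Npy1r, Npy2r and Sstr1, among 5330 probes, and without OV+E2 replicate 4 there was 1, of Npy2r, among 2177. In the authors' values 69 probes (0.23%) passed the adjusted threshold, no member among them, and 18.9% of probes and 2 of the 12 member probes, Npy1r and the first of Npy2r, the unadjusted one. In whole tissue, fewer cells that make a transcript and less of it in each cell cannot be told apart.

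**Figure D1:**
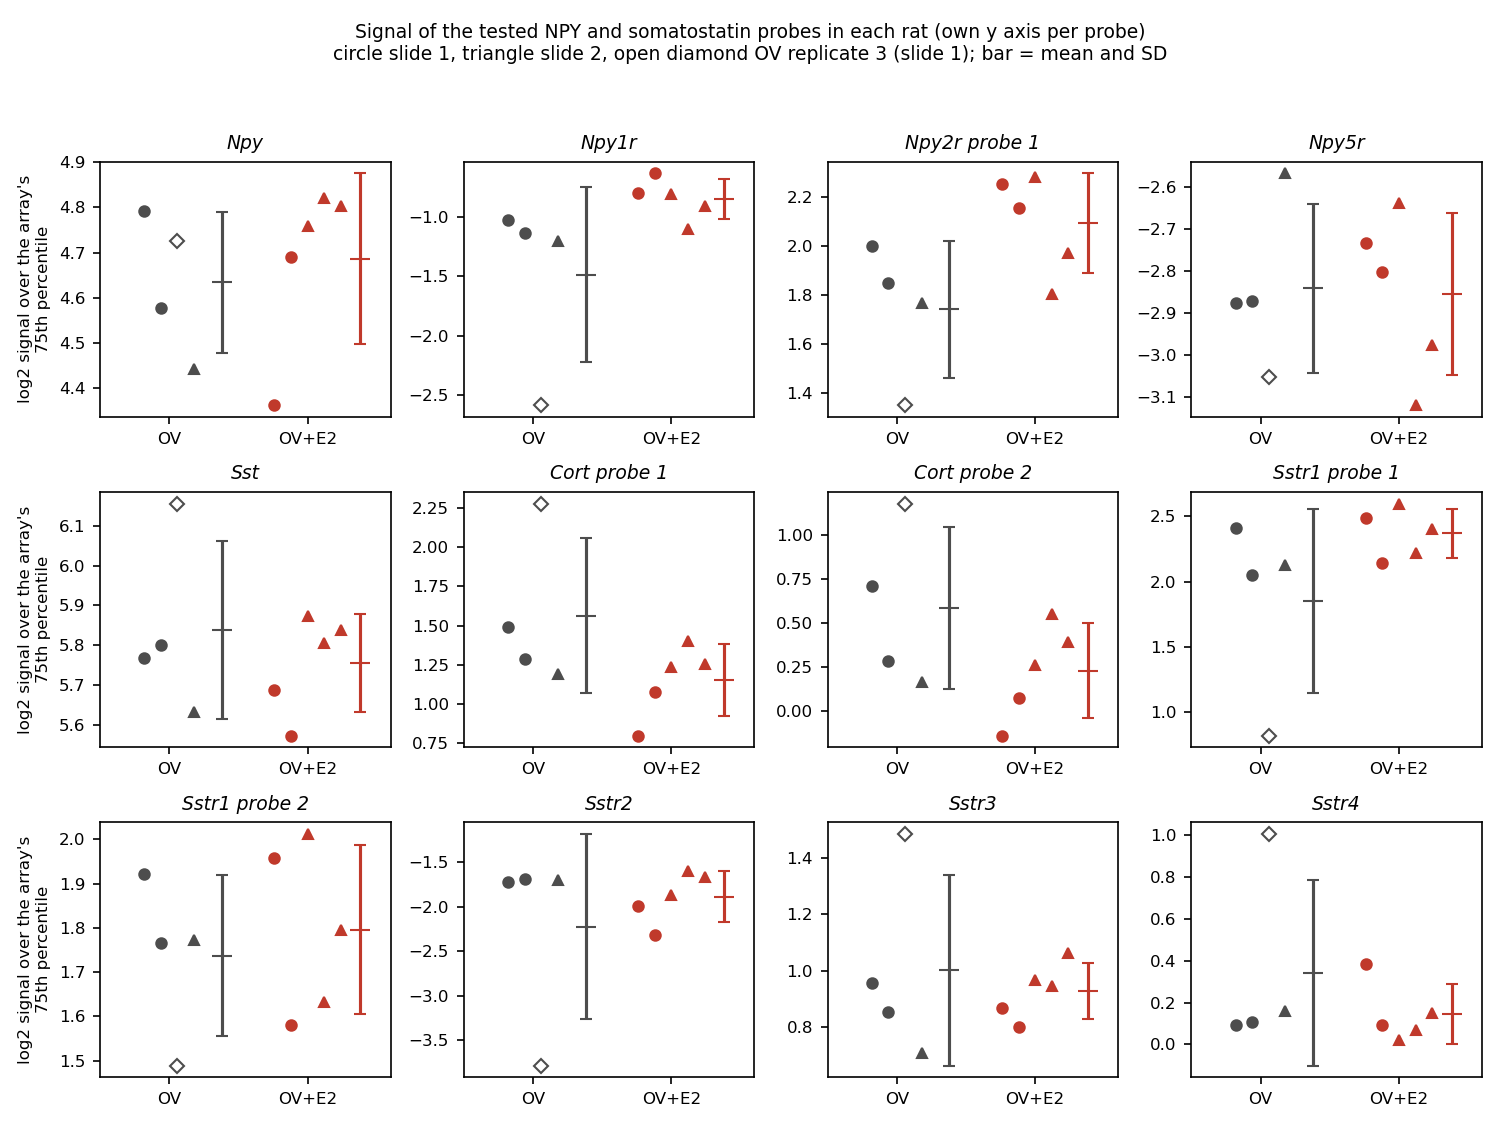
Log2 signal over the array's 75th percentile (y axis, own range for each panel) of the 12 tested probes in the 4 OV and 5 OV+E2 rats, with the mean and SD beside the points; circles are slide 1, triangles slide 2 and the open diamond OV replicate 3. OV replicate 3 is the lowest or the highest of the 9 arrays in 10 of the 12 panels, and in no panel do the groups separate.

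Npy, the gene of neuropeptide Y, was at 4.79, 4.58, 4.73 and 4.44 in OV replicates 1, 2, 3 and 5, and at 4.36, 4.69, 4.76, 4.82 and 4.80 in OV+E2 replicates 1 to 5. The lowest of all 9 arrays was an estradiol rat, replicate 1, and the other 4 estradiol rats lay near the upper end of the OV range, so the groups overlapped. The group means were 4.63 ± 0.16 (SD, n = 4) and 4.69 ± 0.19 (SD, n = 5), a difference of 0.053 (SE 0.13, 95% interval −0.23 to 0.34, adjusted p = 0.832 by limma). That interval runs from 0.852-fold to 1.26-fold, so larger changes of Npy in either direction lie outside it. Without OV replicate 3 the difference was 0.083 (SE 0.13, adjusted p = 0.815 by limma).

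Sst, the gene of somatostatin, was at 5.77, 5.80, 6.16 and 5.63 in OV replicates 1, 2, 3 and 5, and at 5.69, 5.57, 5.87, 5.81 and 5.84 in OV+E2 replicates 1 to 5. The highest value belonged to OV replicate 3, and the other 8 rats lay within the same narrow band in both groups. The means were 5.84 ± 0.22 (SD, n = 4) and 5.76 ± 0.12 (SD, n = 5). The difference was −0.083 (SE 0.12, 95% interval −0.37 to 0.20, adjusted p = 0.725 by limma) and changed sign to 0.022 (SE 0.09) without OV replicate 3, where the OV SD was 0.09.

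The repeated spots show how finely these 2 peptides were read within an array. Within an array the SD of the Npy spots used was 0.0236 to 0.0536 (median 0.0416), and that of the Sst spots used 0.019 to 0.0682 (median 0.0293). Of the 10 spots 9 or 10 were used for Npy and 6 to 10 for Sst, so these SDs leave out the outlier spots. Feature Extraction marked 4 of 90 Npy spots and 10 of 90 Sst spots as outliers, which were left out, and 0 spots were saturated. The SD between rats of a group, 0.16 and 0.19 for Npy, was several times the spread of the spots. For Sst it was 0.22 in OV (0.09 without replicate 3) and 0.12 in OV+E2, also wider than the spots.

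**Figure D2:**
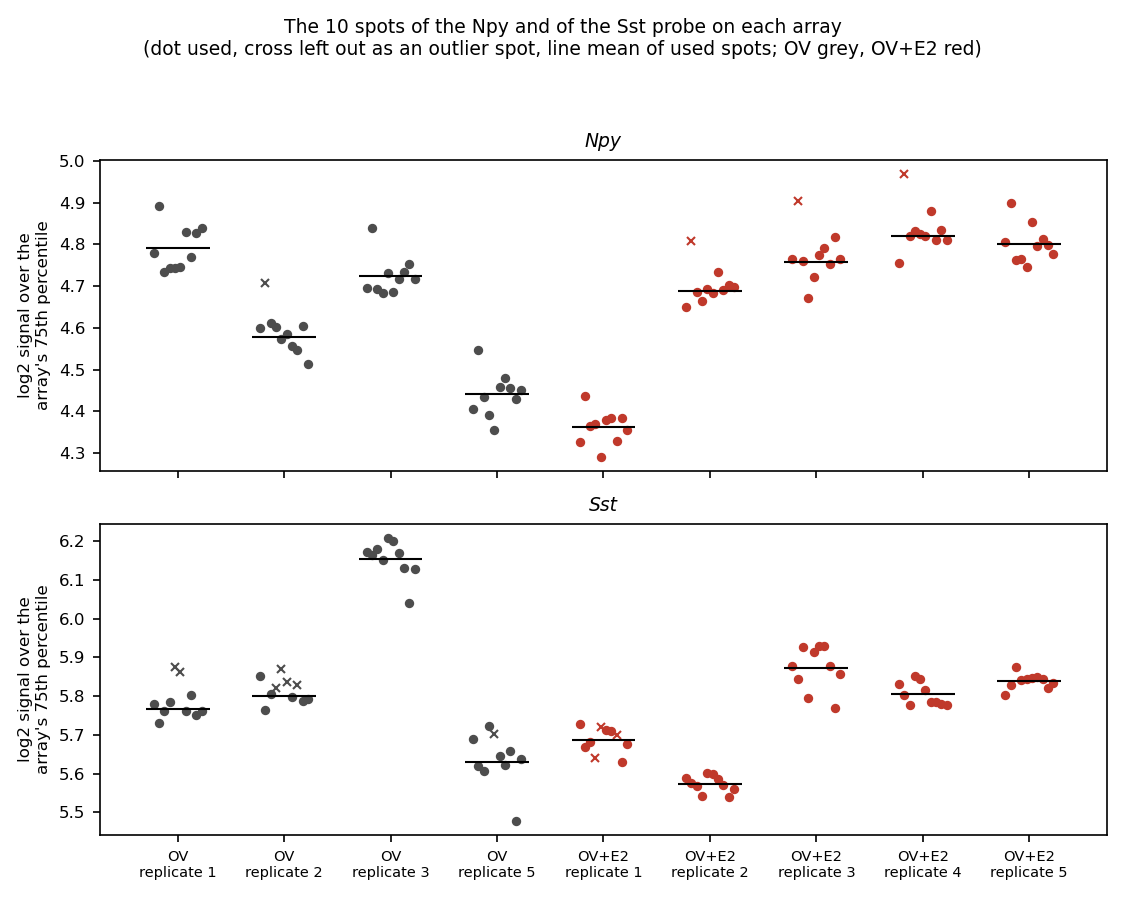
Log2 signal of the 10 spots of the Npy probe (top) and of the Sst probe (bottom) on each of the 9 arrays, with a line at the mean of the spots used and crosses for spots left out as outliers. The spots used on an array lie close together (median SD 0.0416 for Npy and 0.0293 for Sst), while arrays of the same group lie further apart.

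The relation between Npy and Sst from rat to rat did not pass its test in the planned values. Across the 9 arrays Pearson's r was 0.43 (exact permutation p = 0.254, two-sided) and Spearman's rho 0.533 (exact permutation p = 0.148), the only correlation tested between members. Without OV replicate 3 r was 0.545 (exact permutation p = 0.162, n = 8). Without the 2 arrays farthest from the median of Npy, OV replicate 5 and OV+E2 replicate 1, r was 0.105 (exact permutation p = 0.814, n = 7). These 2 arrays held the lowest Npy values, so the r over 9 arrays rested in part on them. A narrower range of Npy can also lower r by itself. Without OV replicate 5 alone r was 0.311, and without OV+E2 replicate 1 alone 0.379. With quantile normalization r was 0.557 (exact permutation p = 0.117) and rho 0.717 (exact permutation p = 0.0369), the one value of the correlation under 0.05 over the alternatives run, unadjusted for their number. Each slide holds fewer than 6 arrays, and r was not computed within slides.

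Cort encodes cortistatin, a peptide close to somatostatin that binds the same receptors. Its first probe was at 1.49, 1.29, 2.28 and 1.19 in OV replicates 1, 2, 3 and 5 and at 0.80, 1.08, 1.23, 1.40 and 1.25 in OV+E2 replicates 1 to 5. OV replicate 3 was again the highest, OV+E2 replicates 1 and 2 were below every OV rat, and the other 3 estradiol rats were among them. The difference was −0.41 (SE 0.23, 95% interval −0.92 to 0.10, adjusted p = 0.514 by limma) and −0.17 (SE 0.14) without OV replicate 3. The second probe gave −0.36 (SE 0.23) and −0.16 (SE 0.18), which, with 34 shared bases, is not an independent reading.

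Npy1r encodes the Y1 receptor, the main postsynaptic receptor of neuropeptide Y. Its probe was at −1.03, −1.13, −2.59 and −1.21 in OV replicates 1, 2, 3 and 5, and at −0.80, −0.63, −0.81, −1.10 and −0.91 in OV+E2 replicates 1 to 5. Among the estradiol rats 4 of 5 were above the highest OV rat, and all 5 were above the OV mean taken without replicate 3, but OV+E2 replicate 4 was below OV replicate 1, so the groups overlapped. The difference with all 9 arrays was 0.64 (SE 0.30, 95% interval −0.04 to 1.32, adjusted p = 0.498 by limma), or 1.56-fold.

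The size of the Npy1r difference rested on OV replicate 3. Without that array it was 0.27 (SE 0.11, 95% interval 0.03 to 0.52), or 1.21-fold, with an unadjusted p of 0.0338 and an adjusted p of 0.307 (limma). In the authors' value table the same rat was listed at 274 for Npy1r, against 285 to 323 in the other OV rats and 307 to 423 in the OV+E2 rats. The scanner signal of 21.6 is unscaled, from an array with a 75th percentile of 129.7, so it cannot be set directly against 274. Scaled, the scanner value was −2.59 in log2, against −1.21 to −1.03 in the other OV rats. The difference in the authors' values was 0.31 (SE 0.10, unadjusted p = 0.0104, adjusted p = 0.133 by limma). It was higher in OV+E2 on both slides, by 0.36 on slide 1 without OV replicate 3 and by 0.27 on slide 2. With slide as a block it was 0.64 (SE 0.34, adjusted p = 0.717 by limma) over 9 arrays and 0.32 (SE 0.09, adjusted p = 0.207 by limma) without OV replicate 3.

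Npy2r encodes the Y2 receptor, which sits largely on the terminals that release neuropeptide Y and limits further release. Its first probe was at 2.00, 1.85, 1.35 and 1.77 in OV replicates 1, 2, 3 and 5, and at 2.26, 2.16, 2.28, 1.80 and 1.97 in OV+E2 replicates 1 to 5. The estradiol replicates 1, 2 and 3 were above every OV rat, and replicates 4 and 5 lay inside the OV range. The difference was 0.35 (SE 0.16, 95% interval −0.0025 to 0.71, adjusted p = 0.482 by limma), or 1.28-fold, and 0.22 (SE 0.12, adjusted p = 0.461 by limma) without OV replicate 3. It was higher in OV+E2 by 0.28 on slide 1 without OV replicate 3 and by 0.25 on slide 2, and was 0.39 (SE 0.17, adjusted p = 0.667 by limma) with slide as a block. This probe and that of Npy1r stayed on the higher side in OV+E2 under all 20 alternative settings, arrays left out included, with a lowest adjusted p of 0.233 for Npy2r and 0.133 for Npy1r (limma). The first Sstr1 probe likewise stayed higher under all 20 (lowest adjusted p 0.129 by limma), and both Cort probes stayed lower under all 20. These settings are not independent. Changing only the filter on dim probes cannot move a difference, and the replicate block gave the differences found without OV+E2 replicate 4. Without OV replicate 3 the authors' values nearly repeated the scanner values.

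The second Npy2r probe stayed at background level in every rat, with signals of 2.58 to 15.6 in OV and 5.80 to 14.6 in OV+E2. It was not tested, and no fold is given. The Npy2r result therefore rests on the first probe alone.

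Npy5r encodes the Y5 receptor, best known for its part in feeding. The gene was dim, at −3.05 to −2.57 in OV and −3.12 to −2.64 in OV+E2, and was well above background on 8 of 9 arrays, OV replicate 3 being the exception. The ranges coincided almost fully, and the difference was −0.013 (SE 0.14, 95% interval −0.32 to 0.30, adjusted p = 0.966 by limma), or −0.083 (SE 0.13) without OV replicate 3. Npy1r, whose probe lies 24.7 kb away, had the larger difference of the pair, but the difference between the 2 receptors was not tested.

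**Figure D3:**
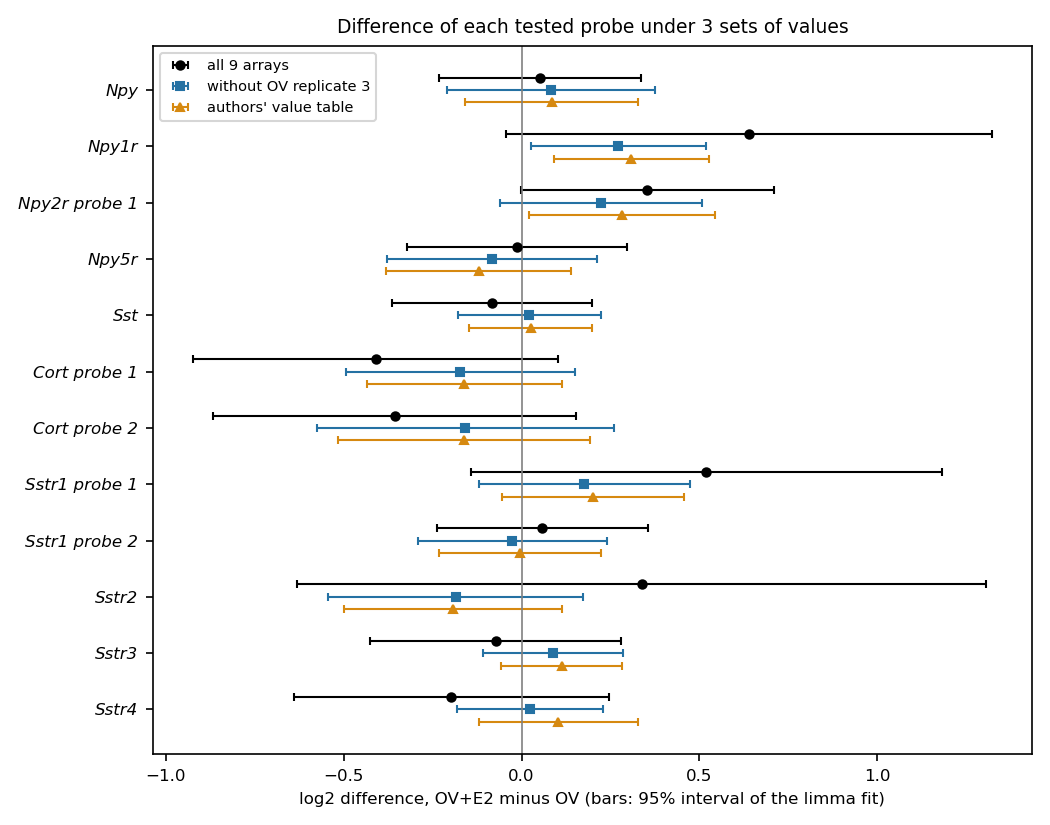
Log2 difference, OV+E2 minus OV (x axis), of each of the 12 tested probes with its 95% interval in the limma fit, with all 9 arrays, without OV replicate 3 and in the authors' value table. Npy1r and the first probes of Npy2r and Sstr1 are on the higher side in all 3 sets of values, Npy1r at 0.64, 0.27 and 0.31, and the sign of Sst, the second Sstr1 probe, Sstr2, Sstr3 and Sstr4 differs between all 9 arrays and the other 2 sets.

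Among the somatostatin receptors, Sstr1 was read by 2 probes, both lowest on OV replicate 3 but by different amounts. The first was at 2.41, 2.05, 0.82 and 2.13 in OV replicates 1, 2, 3 and 5, and at 2.49, 2.14, 2.60, 2.22 and 2.40 in OV+E2 replicates 1 to 5. Only OV replicate 3 lay clearly below the rest. The difference was 0.52 (SE 0.29, adjusted p = 0.514 by limma) and 0.18 (SE 0.13) without that array, with 0.09 on slide 1 without it and 0.28 on slide 2. The second probe, 224 bases further along, was at 1.49 to 1.92 in OV and 1.58 to 2.01 in OV+E2, with a difference of 0.058 (SE 0.13, adjusted p = 0.823 by limma) that turned to −0.025 (SE 0.11) without OV replicate 3.

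Sstr2, the receptor subtype that many somatostatin analogues are made to bind, was at −1.72, −1.69, −3.79 and −1.69 in OV replicates 1, 2, 3 and 5, and at −1.99, −2.31, −1.87, −1.59 and −1.66 in OV+E2 replicates 1 to 5. The probe was not well above background on OV replicate 3, and the other OV rats were nearly identical. The difference over 9 arrays, 0.34 (SE 0.43, adjusted p = 0.68 by limma), turned to −0.19 (SE 0.16, unadjusted p = 0.269) without that array. In this smaller set 3 of 5 estradiol rats, replicates 1, 2 and 3, were below every OV rat and the other 2 were above them.

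Sstr3, a receptor found on neuronal primary cilia, was at 0.71 to 1.49 in OV and at 0.80 to 1.06 in OV+E2. The highest OV value was that of replicate 3, and the difference was −0.073 (SE 0.16, adjusted p = 0.811 by limma), or 0.089 without it. Sstr4 was at 0.09, 0.11, 1.00 and 0.16 in OV replicates 1, 2, 3 and 5, and at 0.02 to 0.38 in OV+E2. Apart from OV replicate 3 both groups lay together, and the difference of −0.20 (SE 0.20, adjusted p = 0.609 by limma) became 0.024 without it.

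Over the 12 tested probes 6 were higher and 6 lower in OV+E2, with a median difference of 0.02 against 0.0011 over all tested probes. Without OV replicate 3 there were 7 higher and 5 lower, and the sign of 5 probes changed (Sst, the second probe of Sstr1, Sstr2, Sstr3 and Sstr4). OV replicate 3 was the lowest of the 9 arrays for 5 probes and the highest for 5. No member probe had groups that did not overlap, where 6.89% of all tested probes with complete values did with 9 arrays and 10.4% without OV replicate 3.

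The slides split the members. Differences within slide 1 and within slide 2 had opposite signs for 7 of 12 member probes with all arrays and for 8 of 12 without OV replicate 3, where 40.2% and 38.4% of all tested probes did. Npy was lower in OV+E2 by −0.16 on slide 1 without OV replicate 3 and higher by 0.35 on slide 2. Sst was at −0.15 and 0.21, and the first Cort probe at −0.45 and 0.11. Slide 2 holds a single OV rat, replicate 5, which had the lowest Npy, Sst and Cort values of its group, so the slide 2 differences carry no error. Markers fixed for the striatum, which borders the amygdala, split the same way: over 5 of 6 markers tested, each well above background on all 9 arrays, the median difference was −0.50 on slide 1 without OV replicate 3 and 0.37 on slide 2. Their summed level was 5.24 to 6.06 in OV (5.24 to 5.68 without replicate 3) and 4.80 to 5.80 in OV+E2. A summed level is the log2 of the added scaled signals of a list, so its brightest genes weigh most. None of the striatum markers was at background, and their part in the slide split of Npy, Sst and Cort was not tested.

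**Figure D4:**
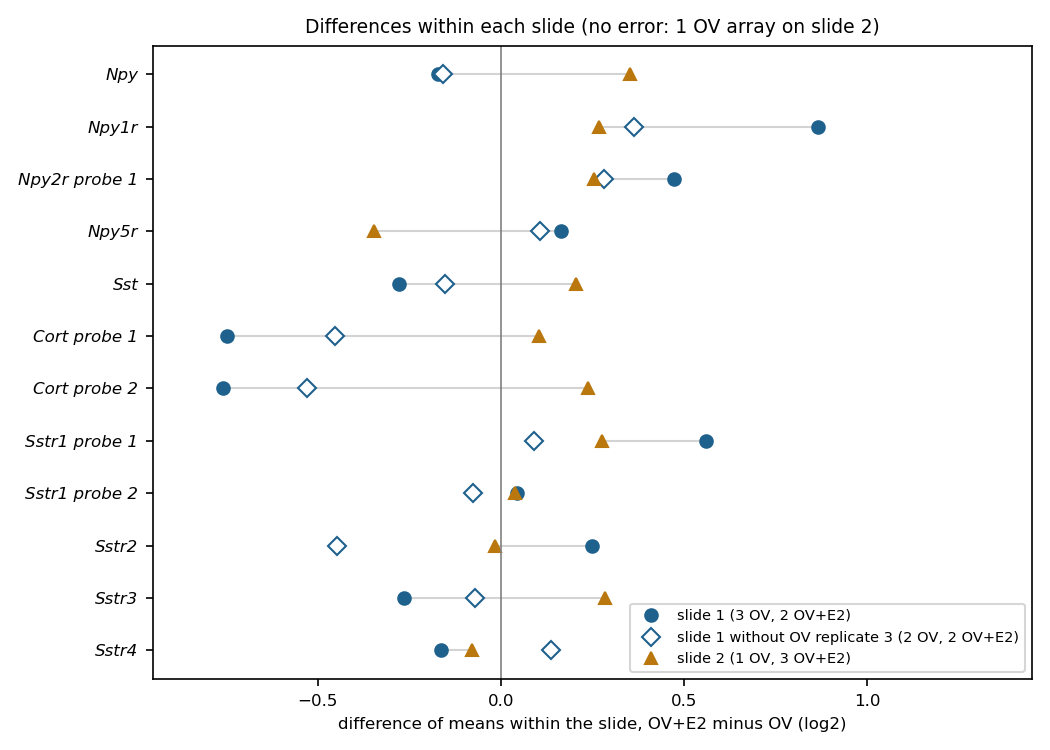
Difference of group means within each slide, OV+E2 minus OV on the log2 scale (x axis), for the 12 tested probes; open diamonds leave out OV replicate 3 and grey lines join slide 1 and slide 2. Npy1r, the first Npy2r probe and the first Sstr1 probe are higher in OV+E2 on both slides, while Npy, Sst and both Cort probes are lower on slide 1 and higher on slide 2.

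Markers of the choroid plexus, the lining that makes cerebrospinal fluid, also varied between rats, with a summed level of 3.48 to 9.55 in OV (3.48 to 8.42 without replicate 3) and 7.99 to 8.90 in OV+E2 over 4 of 4 markers. Their median difference was 2.00 on slide 1 without OV replicate 3 and 0.14 on slide 2. Over 5 of 5 thalamus markers the median was 0.15, with 0.79 on slide 1 without OV replicate 3 and 0.02 on slide 2. Of these markers 1 was higher at the unadjusted threshold, and 0 without OV replicate 3. The microglia, hypothalamus and endothelium lists had lower medians in OV+E2 on both slides, where Npy1r, the first Npy2r probe and the first Sstr1 probe were higher. All 3 microglia markers and 3 of 7 hypothalamus markers were lower at the unadjusted threshold, with list medians of −0.58 and −0.21. Without OV replicate 3 these were 2 of 3 and 3 of 7, with medians of −0.47 and −0.34. Within slides the medians were −0.38 (slide 1 without OV replicate 3) and −0.45 (slide 2) for microglia, and −0.32 and −0.31 for the hypothalamus. The summed level of the microglia list was 3.88 to 5.00 in OV (3.88 to 4.56 without replicate 3) and 3.57 to 3.89 in OV+E2. That of the hypothalamus list was 5.70 to 6.74 in OV, with or without replicate 3, and 4.98 to 6.10 in OV+E2. Of the endothelium markers 2 of 3 were lower, with and without OV replicate 3. Among the 9 amygdala markers 1 was higher and 0 lower, with a list median of 0.049. That marker was Slc17a7, of glutamatergic neurons, at 0.30 (SE 0.09, unadjusted p = 0.0102, adjusted p = 0.326 by limma). Without OV replicate 3 the list median was −0.046, with 1 higher and 1 lower. The lower was Esr1, dim and named after its values were seen, at −0.28 (SE 0.09, unadjusted p = 0.0148 by limma). Within slides the list median was −0.13 (slide 1 without OV replicate 3) and 0.11 (slide 2). The part of these lists in the receptor differences was not tested.

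The genes most like Npy and Sst in pattern were found over the 8 arrays without OV replicate 3, among 12779 named genes well above background on all 9 arrays. For Npy these were Mcrs1 (r = 0.969), Tet3 (0.96) and Dusp5 (0.949), and over all 9 arrays their r was 0.739, 0.0603 and 0.837. For Sst they were Peli1 (0.957), Sptbn4 (0.947) and Rd3 (0.945), and over 9 arrays −0.668, 0.92 and 0.941. Only Sptbn4 and Rd3 stayed above 0.9 with OV replicate 3 included. Of the members compared with Npy, Cort had the highest r, at 0.742, and ranked 350 of 12779, and for Sst it was Sstr3 at 0.807, ranked 110. With all 9 arrays these were 0.48 and 0.937, and the r of Sst with Cort went from 0.498 to 0.85. Members did not all go with Npy: Sstr4 was at −0.761, ranked 12728, and at −0.12 over 9 arrays. These are descriptions over 8 arrays that share slides and dissections.

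Genes around the 2 systems were read from lists of other family members, of peptide processing, of receptor coupling and of interneuron identity. None of their tested genes passed the adjusted threshold (limma). By brightest probe, 3.65% of 15838 genes were higher and 6.18% lower at an unadjusted p under 0.05 (6.86% and 7.05% without OV replicate 3), and the median difference of all genes was 0.023.

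Of 5 other peptides and receptors of the 2 families 4 were tested, with 0 higher and 1 lower at the unadjusted threshold and a median of −0.44. Ppy, the gene of pancreatic polypeptide, was at −3.28 in OV and −4.22 in OV+E2, a difference of −0.94 (SE 0.40, unadjusted p = 0.0433, adjusted p = 0.469 by limma). Npy4r, which encodes the Y4 receptor, was at −0.28 (SE 0.16), and Pyy, the gene of peptide YY, at −0.59 (SE 0.46). All 3 are dim. Without OV replicate 3 the list had 0 genes at the unadjusted threshold and a median of −0.15, with Ppy at −0.55 (SE 0.30), Npy4r at −0.21 (SE 0.16) and Pyy at −0.079 (SE 0.25). Sstr5, named after its values were seen, went from 0.021 (SE 0.43) to 0.44 (SE 0.33).

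Peptide processing had 1 of 10 genes higher and 0 lower at the unadjusted threshold, with a median of 0.19, and 0.092 without OV replicate 3. The gene was Scg2, which encodes secretogranin II of dense-core vesicles, at 4.55 in OV and 4.83 in OV+E2. Its difference was 0.28 (SE 0.10, unadjusted p = 0.0224, adjusted p = 0.40 by limma), and 0.21 (SE 0.07, unadjusted p = 0.0219 by limma) without OV replicate 3. Within slides it was 0.25 on slide 1 with all arrays, OV replicate 3 included, and 0.28 on slide 2. Pcsk1, a convertase that cuts peptide precursors, was at 0.26 (SE 0.14), and at 0.19 (SE 0.13) without that array. Cpe, which trims the cut ends, was at 0.63 (SE 0.37), and at 0.16 (SE 0.08) without OV replicate 3.

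Receptor coupling had 1 of 12 genes higher and 1 lower, with a median of 0.13. There were 1 higher and 0 lower without OV replicate 3, with a median of 0.032. Kcnj6, which encodes the potassium channel subunit GIRK2 opened by these receptors, was higher at 0.28 (SE 0.12, unadjusted p = 0.0413, adjusted p = 0.463 by limma), and at 0.26 (SE 0.12, unadjusted p = 0.0548 by limma) without OV replicate 3. Kcnj9, of the related subunit GIRK3, was at 0.30 (SE 0.13), and at 0.18 (SE 0.09) without that array. Kcnj3, of the subunit GIRK1 and named after its values were seen, lay the other way at −0.41 (SE 0.19), and at −0.37 (SE 0.20) without that array, so the 3 channel genes did not share a direction. The gene under the unadjusted threshold without OV replicate 3 was Creb1, a transcription factor that binds the cyclic AMP response element, at 0.16 (SE 0.05, unadjusted p = 0.0153 by limma), also named after its values were seen. Adcy5, an adenylyl cyclase that Gi inhibits and that is abundant in the striatum, was lower at −0.47 (SE 0.21, unadjusted p = 0.0496). It was at −0.27 without OV replicate 3, and at −0.67 on slide 1 with all arrays and −0.027 on slide 2.

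Of the 13 interneuron genes 0 were higher and 0 lower at the unadjusted threshold, with a median of 0.023, and −0.0095 without OV replicate 3. Elfn1, a synaptic protein of somatostatin interneurons, was at −0.20 (SE 0.11), the glutamate receptor subunit Grin3a at −0.20 (SE 0.11), and Satb1, a transcription factor of these neurons, at 0.18 (SE 0.11). The same genes were at −0.18, −0.13 and 0.10 without OV replicate 3. Their summed level was 5.62 to 5.83 in OV and 5.78 to 5.91 in OV+E2.

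**Figure D5:**
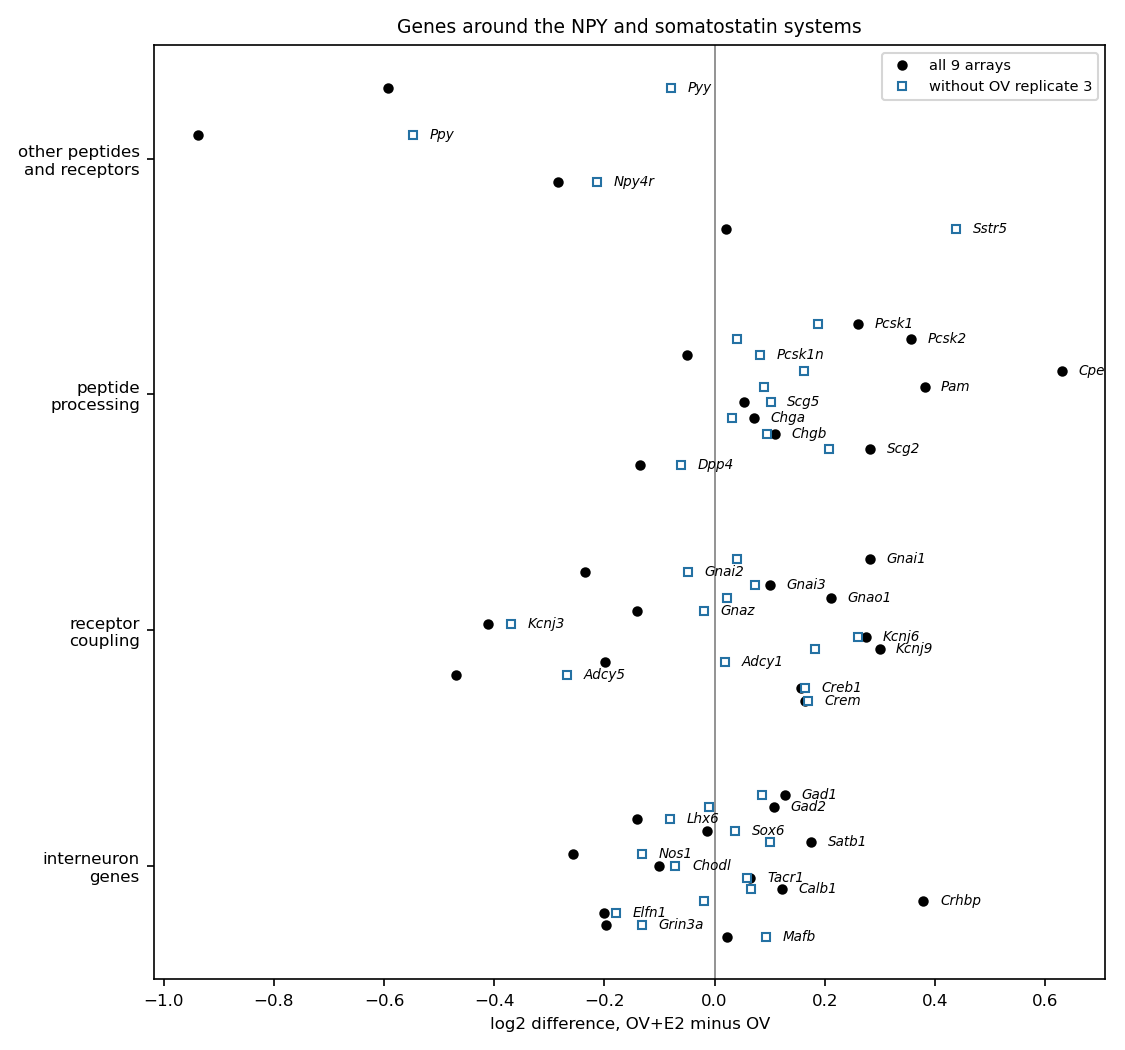
Log2 difference, OV+E2 minus OV (x axis), of each tested gene of the 4 lists, with all 9 arrays (black) and without OV replicate 3 (open squares). Interneuron genes have a median of 0.023, and genes such as Cpe (0.63 and 0.16) move towards 0 when OV replicate 3 is left out.

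Promoters were examined in RefSeq's sequences for build GRCr8, from 250 bases before to 50 after each annotated start, and all 10 members were matched by symbol. The full estrogen response element, GGTCA and TGACC with any 3 bases between them, was in 0 of 10 member promoters, against 0.0269% of 33469 promoters. Its half-site GGTCA, searched on both strands and contained in the full element, was in 0 of 10 members against 40.5% of all promoters. The cyclic AMP response element TGACGTCA, the same on both strands, was in 2 of 10, Sst and Sstr2, against 1.83% of all. The Sp1 box GGGCGG, on either strand, was in 3 of 10, Npy, Sstr2 and Sstr3, against 33.1%. The cyclic AMP response elements (capitals) are shown because somatostatin is the gene in which this element is best known; these stretches lie at chr11:90461537-90461566, plus strand, with the element at bases 3 to 10 after the annotated start, and at chr10:99163269-99163298, plus strand, with it at −73 to −66:
Sst: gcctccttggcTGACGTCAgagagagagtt
Sstr2: ccaagctgccgTGACGTCAcgggtgggggc

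A match is only a run of letters in this window, and its absence says nothing on estradiol receptor binding elsewhere. Neither gene with the element passed the test between the groups.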

How the data were processed

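Processed signals are intensities after background subtraction, deposited by the authors as Agilent scanner output (Feature Extraction 10.7.3.1 per the file headers, 9.1 per the submitters' processing notes). The authors' value table also holds intensities, of 30469 probes, deposited without a stated scaling: on 8 arrays its log2 values follow the scaled scanner values, with column medians of 8.28 to 8.33 over all 9 arrays. Flags for background and outlier spots are those in the deposited files.

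Of 62976 spots 4259 controls and outlier spots were left out, spots of a probe were averaged (45598 probes), and log2 signals were centred on each array's 75th percentile. Tested probes were those flagged well above background on 4 or more arrays. The contrast was fitted in limma 3.58.1 under R 4.3.3 (lmFit, eBayes, group only), with Benjamini-Hochberg adjustment over 30215 probes and a threshold of 0.05. The fit was also run on simulated data with independent noise for each probe and array. Those data held no array-wide shift, so the run says nothing on an array such as OV replicate 3. Pathway genes were read by their brightest probe, up to 3 of smallest p being named per list, and genes were named through RefSeq. Alternatives, for the correlation too where they apply, covered background correction, scaling, filter, slide, array weights, replicate numbers, the authors' values and each array left out. Replicates are separate rats per the labels' protocols, and the number of arrays limits precision. The members and lists were chosen with earlier results of these data known.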

Additional observations from a re-analysis of the deposited data

Results flagged for a closer look

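A single rat far from the others of its group was looked for in 24 sets (12 probes in each group), of which chance marks about 1 in 20, and 4 were found. Of these 3 were OV replicate 3: Npy1r at −2.59, with the next OV rat at −1.21, Sstr2 at −3.79, with the next at −1.72, and Sstr4 at 1.00, with the next at 0.16. Npy was at 4.36 in OV+E2 replicate 1, with the next rat of its group at 4.69; its 10 spots there lay close together.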

How the results depend on the processing

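The 12 member differences were recomputed under the alternatives, 238 values in all, of which 202 kept their sign, 36 did not and 0 passed the adjusted threshold (lowest adjusted p 0.129, limma). Settings that change only the filter on dim probes leave each difference as it was, so their values kept their sign by construction. The replicate block repeated the differences found without OV+E2 replicate 4. The count of kept signs is therefore not one of independent readings. Over all probes the count called was 0 and became 9 with no filter on dim probes, 69 in the authors' values, 2494 with array weights, 0 to 1 with each array left out, 1 in the authors' values without OV replicate 3 and 1 with slide as a block without it; of these the last 2 were added after the data were seen. Member probes at an unadjusted p under 0.05 numbered 0, and 1 with normexp (Npy1r, offset 50, among 2532 of 30215 probes in all). There was 1 with the filter on dim probes set to all 9 arrays (Npy2r, among 2507 of 23420). The authors' values gave 2 (Npy1r and Npy2r, among 5655 of 30000). Array weights gave 2 (Npy1r and Sstr1 probe 1, among 8773 of 30215, a larger share than the members'). With each array left out there were 0 to 3, among 2024 to 5330 of 30215 probes. Without OV replicate 3 there was 1 in the authors' values (among 4239 of 30000) and 1 with slide as a block (among 4728 of 30215). Both were Npy1r, and in both settings the share over all probes was larger than the members'.

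Signs turned as follows. Sst was at 0.037 with normexp, 0.032 with quantile normalization, 0.022 with median scaling, 0.025 in the authors' values, 0.020 with array weights, 0.014 in the authors' values without OV replicate 3 and 0.0007 with slide as a block without it, and at −0.15 to 0.022 with each array left out. Sstr2 was at −0.16 with normexp, −0.19 in the authors' values, −0.071 with array weights, −0.18 in the authors' values without OV replicate 3 and −0.26 with slide as a block without it, and at −0.19 to 0.52 with each array left out. Npy5r was at 0.090 with quantile normalization, 0.093 with median scaling and 0.054 with the replicate block, and at −0.083 to 0.079 with each array left out. Sstr3 was at 0.033 with median scaling, 0.11 in the authors' values, 0.12 with array weights, 0.089 and 0.081 for the authors' values and slide as a block without OV replicate 3, and −0.17 to 0.089 with each array left out. Sstr1 probe 2 was at −0.0038 in the authors' values, −0.025 and −0.026 for the same 2 sets, and −0.025 to 0.12 with each array left out. Sstr4 was at 0.10 in the authors' values, 0.011 with array weights, 0.024 and 0.045 for the same 2 sets, and −0.28 to 0.024 with each array left out. Npy was at −0.012 without OV replicate 5, and −0.012 to 0.13 with each array left out. Causes were not tested. The median of all probes moved by 0.11 with median scaling, −0.11 with normexp and −0.13 with no filter.

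Deviations of same-numbered rats correlated at 0.17, −0.076, −0.011 and 0.105, against −0.29 to 0.122 for rats with different numbers. The highest, of the rats numbered 1, lay above that range and the others inside it. These values do not settle whether replicate numbers pair the rats. With the numbers as a replicate block the count called stayed 0, with 1967 probes at an unadjusted p under 0.05.

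Precision is limited by 4 against 5 rats, by the single OV rat on slide 2 and by the unsettled record of OV replicate 3. Dim probes (Npy5r, Sstr2 and the second of Npy2r) are limited by background.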
